A study of Mus musculus with 31 samples.

Results

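Epididymal white adipose tissue (eWAT), the fat pad beside the testis, was compared by RNA-seq between male C57BL/6J mice kept at 4 °C for 2 days and mice killed at thermoneutrality. The comparison used 6 of the 31 libraries of the series, chosen by their labels: eWAT532, eWAT538 and eWAT539 at day 2 in the cold, against eWAT516, eWAT517 and eWAT518 at day 0. All mice were 8 weeks old and had spent 8 days at thermoneutrality first, at a temperature the labels do not give, so the day 0 animals were unstressed by cold but not kept at ordinary room temperature. Tissue was snap frozen, RNA was extracted with Trizol, and 1 µg of total RNA entered each Illumina library. The labels give each library a number but do not say whether numbers are single animals, so p-values measure the spread between these libraries. Total counts were 3.38, 3.19 and 3.88 M in eWAT532, eWAT538 and eWAT539, against 3.94, 4.03 and 3.42 M in eWAT516, eWAT517 and eWAT518.

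White adipocytes store triglyceride and release fatty acids when noradrenaline from sympathetic nerves, acting through beta-adrenergic receptors and cyclic AMP, switches on lipolysis. In the cold these fatty acids feed heat production in brown fat and muscle. White fat also makes fatty acids from glucose (de novo lipogenesis) and joins them to glycerol, under the control of insulin and feeding. Epididymal fat is a visceral pad known for acquiring few heat-producing beige adipocytes, unlike the inguinal pad. It lies against the epididymis and vas deferens, whose transcripts can enter a dissected sample.

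No gene passed the test in eWAT after 2 days of cold. In edgeR's quasi-likelihood test, 0 of 10043 genes were higher and 0 were lower at an adjusted p under 0.05 (0% called), and the smallest adjusted p rounded to 1. Some named genes had separate groups, beside 2.35% of all genes above and 2.44% below. If the 6 libraries were labelled at random, a gene would separate in either direction with a probability of 0.1, above these shares together. The lipogenic genes Thrsp, Fasn, Scd1, Acaca and Elovl6 were higher in all 3 day 2 libraries than in any day 0 library. They were 5 of 14 lipogenic genes tested, and eWAT516 was lowest in each. The lipase inhibitor Angptl8 and the glycogen synthase Gys2 were higher in the same way, and the insulin receptor inhibitor Grb14 was lower. At an unadjusted p under 0.05 there were 50 higher genes (0.498%) and 56 lower genes (0.558%), and DESeq2 and limma voom also called 0 genes. At the same unadjusted p DESeq2 had 86 higher and 84 lower, and voom had 66 higher and 55 lower. Values below are therefore given as measured levels, and none of the genes named passed the threshold.

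The precision of the comparison was low. The median standard error (SE) of a log2 change was 0.55, the median half-width of its 95% interval was 1.24, and the common biological coefficient of variation was 0.583. The interval lay within a log2 change of 1 in either direction for 857 genes (8.53%) and within 2 for 6855 genes (68.3%). A gene that missed the threshold is therefore not shown to be at the same level at both days. Positive and negative values were balanced, with 50.5% of genes positive, a median of 0.006 and quartiles of -0.32 and 0.35.

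Some libraries stood apart before any comparison of days. Levels are CPM, counts scaled to a common library total; sums over lists use the plain total and single genes use TMM-scaled totals. The 16 epididymis and vas deferens markers with a row summed to 39000, 2480 and 318 CPM in eWAT532, eWAT538 and eWAT539, against 23200, 148 and 1890 CPM in eWAT516, eWAT517 and eWAT518, so 1 library of each group was far above the others. Akr1b7, a vas deferens aldo-keto reductase, led these sums with 29900, 1020 and 6.24 CPM at day 2 and 13900, 0.937 and 11.1 CPM at day 0. The 9 smooth muscle and pericyte markers followed, at 4840, 953 and 677 CPM against 11900, 613 and 1100 CPM, as did skeletal muscle markers, at 425, 66.4 and 50 CPM against 1440, 70.6 and 49.5 CPM. These sums overlapped between days, with exact two-sided permutation p-values of 0.6, 0.7 and 0.7 (smallest possible 0.1).

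Adipocyte markers were present at high level in every library. Their sum over 7 genes was 33200, 21300 and 30700 CPM at day 2, against 18100, 44000 and 50300 CPM at day 0 (exact permutation p = 0.5), and eWAT516 was lowest of the 6. Lipe, Plin1 and Pparg were not analysed here, and Pnpla2 had only a noncoding accession with at most 1 count. Sperm and testis markers summed to 243, 414 and 395 CPM at day 2, against 66, 111 and 385 CPM at day 0 (exact permutation p = 0.2). Over all 14 cell type lists, the exact permutation p was 0.2 or higher and 0.9 after adjustment over the lists. In bulk tissue, fewer cells of a type cannot be told apart from less RNA per cell.

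A second pattern cut across the days. Each library was scored on the axis along which replicates of the other fat depots differ from each other, and scores were 45.9, 59.3 and -28.2 in eWAT532, eWAT538 and eWAT539, against -22.9, -38.6 and 43.8 in eWAT516, eWAT517 and eWAT518. Thus eWAT532, eWAT538 and the day 0 library eWAT518 lay on a high side, and the other 3 on a low side, with the nearest low-side library of the 9, the day 4 library eWAT548, at 3.5. Genes followed it in opposite directions. The respiratory chain gene Cox8b had 140, 378 and 12.8 CPM at day 2 and 1.58, 3.75 and 143 CPM at day 0, and the lipid droplet gene Cidec had 1460, 448 and 8400 CPM at day 2 and 3470, 7940 and 1170 CPM at day 0. Because sides were unequally filled (2 of 3 libraries high at day 2, 1 of 3 at day 0), values within sides are also given for some of the genes below.

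**Figure D1:**
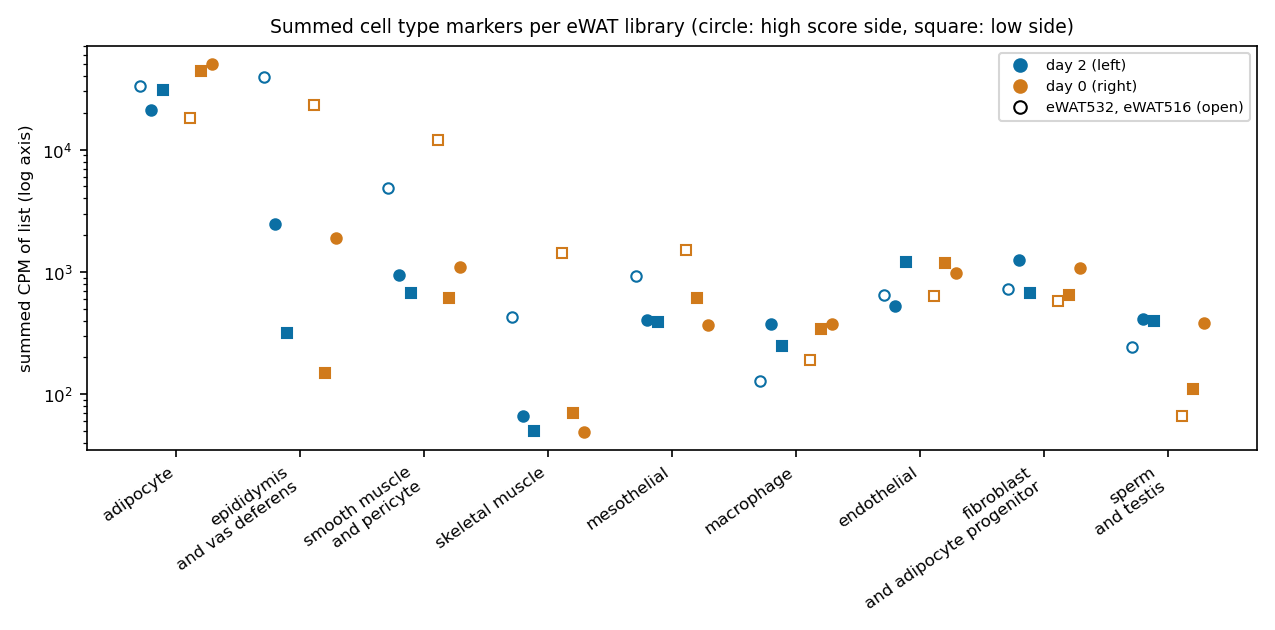
Summed CPM (log axis) of 9 cell type marker lists in each eWAT library, day 2 (blue, left) and day 0 (orange, right); open symbols are eWAT532 and eWAT516, circles the high and squares the low side of the library score. The 2 open symbols lie above all others for epididymis and vas deferens, smooth muscle, skeletal muscle and mesothelial markers, 1 in each group, while adipocyte markers lie between 18100 and 50300 CPM.

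Groups that did not overlap were counted next. All 3 day 2 libraries lay above all 3 day 0 libraries for 236 genes (2.35%) and below them for 245 genes (2.44%). Together these shares are below the probability of 0.1 for randomly labelled libraries given above. With library size alone as scaling the counts were 129 and 417, and the median gene moved to -0.13, so the balance between the directions depends on the scaling. From these genes, the 10 of smallest p in each direction with a mean of at least 5 CPM were taken as leading genes. Means are ± SD with n = 3 per group, and adjusted p in edgeR was 1 for every gene named.

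Angptl8, a secreted protein that acts with other angiopoietin-like proteins to inhibit lipoprotein lipase and is induced by feeding and insulin, showed the largest difference of the higher leading genes. It had 57, 33.9 and 36.1 CPM at day 2, against 4.95, 14.1 and 8.54 CPM at day 0. Each cold library was thus above each thermoneutral one, by a log2 change of 2.20 (SE 0.63, unadjusted p = 0.0064 in edgeR). Leaving out 1 library at a time gave 1.87 to 2.65, and within sides of the score it was 2.16. It was 1.59 without eWAT516, eWAT532 and the day 4 library eWAT551, the 3 with most epididymal transcripts.

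Thrsp (Spot 14), a nuclear protein of lipogenic tissues that responds to thyroid hormone and carbohydrate, had 7083, 8387 and 9638 raw counts at day 2, against 2449, 4468 and 4729 raw counts at day 0, or 2470 ± 360 CPM against 982 ± 402 CPM. The lowest day 2 library was above the highest day 0 library, with a log2 change of 1.33 (SE 0.48, unadjusted p = 0.02 in edgeR). Within sides it was 1.27, and without the 3 libraries named above it was 1.13. Chchd10, a protein of the mitochondrial intermembrane space, had 1530, 2080 and 2080 CPM at day 2 and 663, 737 and 922 CPM at day 0, a log2 change of 1.29 (SE 0.42). Gys2, the glycogen synthase isoform best known from liver, had 25.6, 31.9 and 14.7 CPM at day 2 and 3.38, 7.96 and 9.97 CPM at day 0, a log2 change of 1.76 (SE 0.60). Of these 4 genes, Gys2 was nearest to overlap and was 1.45 within sides.

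The other higher leading genes have varied roles. Slc2a5, the fructose transporter, averaged 14.9 ± 5.39 CPM at day 2 and 4.33 ± 2.29 CPM at day 0, and Sc5d, a desaturase of late cholesterol synthesis, averaged 147 ± 33.2 CPM at day 2 and 61.4 ± 20.6 CPM at day 0. Timm8b, a chaperone of mitochondrial protein import, had 248, 248 and 198 CPM at day 2, against 135, 113 and 136 CPM at day 0. Leo1, a subunit of the PAF1 transcription elongation complex, and the mucin-like membrane protein Parm1 had log2 changes of 1.03 (SE 0.38) and 1.34 (SE 0.39). Msln, the mesothelial surface protein mesothelin, had 19.8, 16.9 and 15.7 CPM at day 2, against 5.85, 6.56 and 5.7 CPM at day 0. Its groups were tight and far apart, but the 12 mesothelial markers with a row summed to 932, 406 and 389 CPM at day 2 and 1510, 611 and 365 CPM at day 0 (exact permutation p = 0.7), so the list as a whole did not follow Msln.

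Grb14, an adaptor that binds the insulin receptor and inhibits its signalling, was the leading lower gene with a symbol. It had 17.4, 14.3 and 11.7 CPM at day 2, against 42.3, 43.1 and 36.5 CPM at day 0. Spread within each group was small beside the gap, which the rule that picks leading genes favours. The log2 change was -1.49 (SE 0.36, unadjusted p = 0.00237 in edgeR). It stayed between -1.65 and -1.36 over all settings tried. Among 12 insulin signalling genes tested, Grb14 alone had groups that did not overlap, beside 2.35% of all genes above and 2.44% below. The median was 0.16, and the docking protein gene Irs1 and the receptor gene Insr were at 0.74 and 0.08.

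Dio3os, a noncoding RNA from the strand opposite the thyroid hormone deiodinase gene Dio3, had 2.91, 6.84 and 3.8 CPM at day 2, against 17.3, 15.5 and 14 CPM at day 0. Reads of the 2 strands cannot be told apart here, since strand use in counting is not recorded. Dio3 itself had 4, 1 and 1 counts at day 2, against 2, 1 and 5 counts at day 0. C6, a component of the complement attack complex, had 14.8, 35.5 and 19.5 CPM at day 2 and 36.5, 63.9 and 110 CPM at day 0, which is close to overlap. Sult1e1, the estrogen sulfotransferase, was even within groups, at 62.5, 67.8 and 62.7 CPM against 135, 171 and 190 CPM.

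Pygm, the muscle form of glycogen phosphorylase, had 4.94, 2.61 and 8.14 CPM at day 2, against 20.3, 12.9 and 14.2 CPM at day 0. Its highest value was in eWAT516, the library with most skeletal muscle markers, and without eWAT516 its log2 change was -1.39 instead of -1.58 (SE 0.52). The remaining lower leading genes were Cpxm1, a carboxypeptidase family member, the serpin gene Serpina3b, Fndc5, the gene of the irisin precursor, and Ttc34, with log2 changes from -2.77 to -1.44, and a transcript listed without a symbol (NR_026976) with -2.69 (SE 0.66). Ttc34 and this transcript had day 2 levels of at most 1.45 CPM, a few reads per library. Fndc5 was close to overlap, with 8.14 CPM in eWAT539 at day 2 and 8.54 CPM in eWAT518 at day 0.

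**Figure D2:**
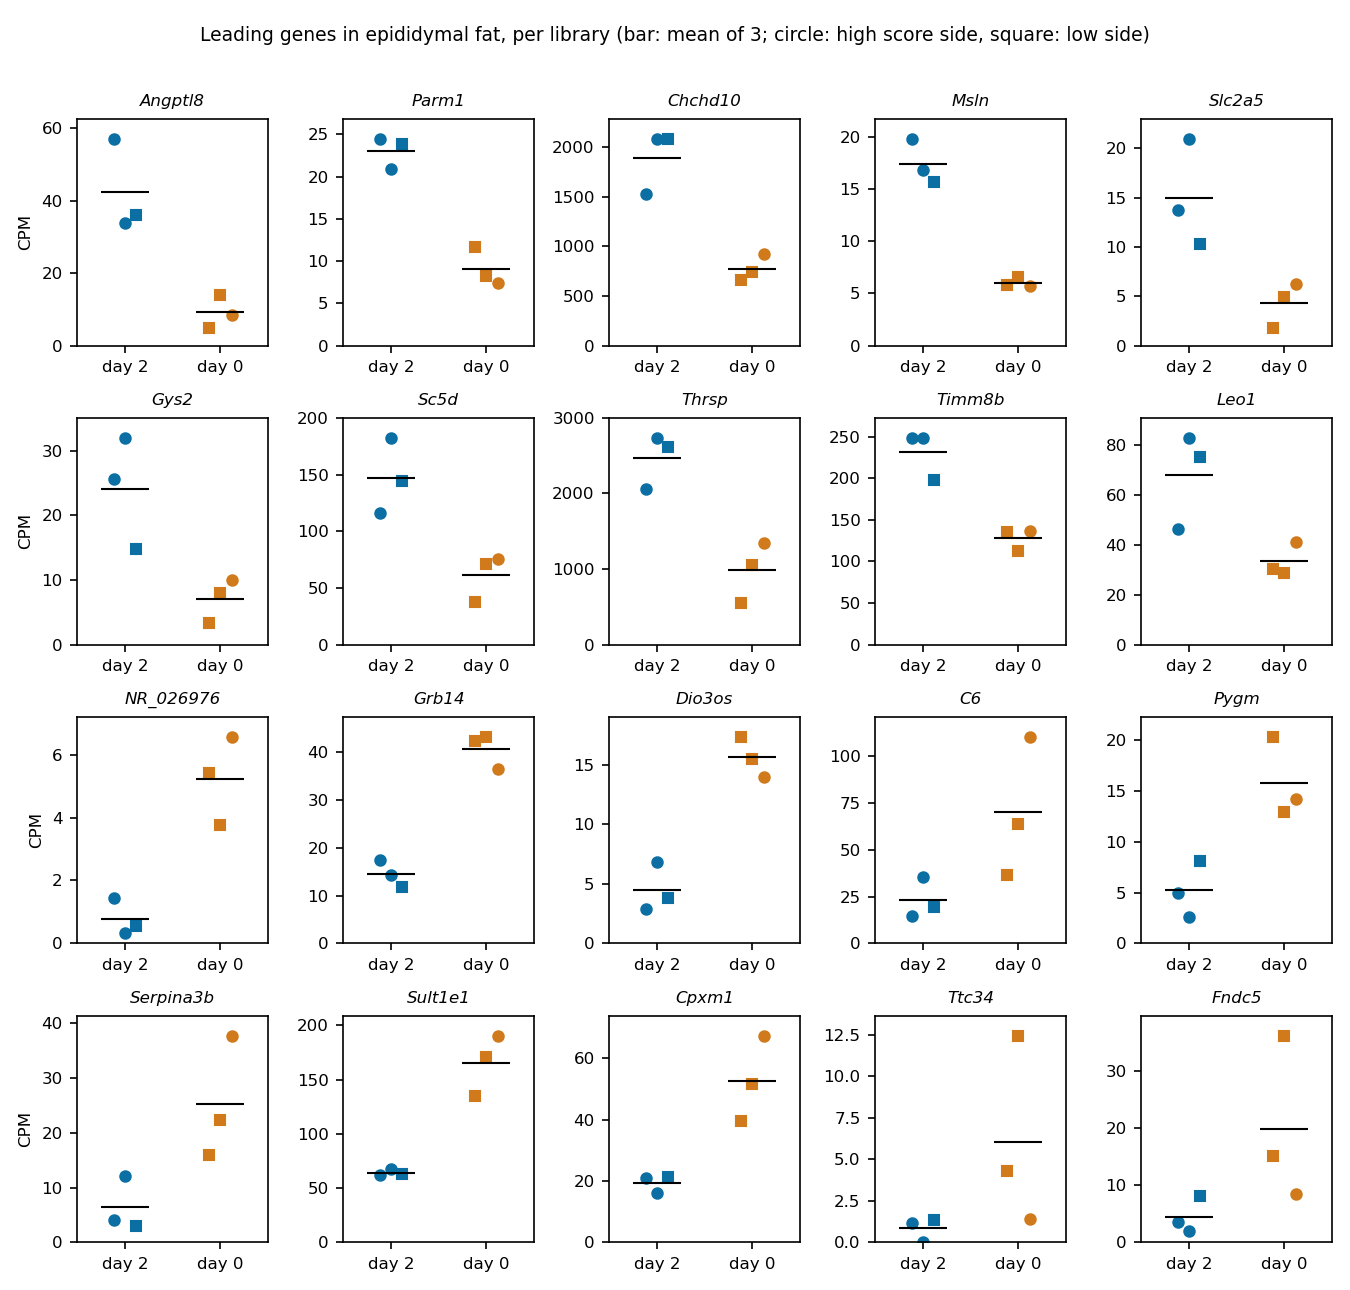
CPM (linear axes from 0) of the 10 higher (upper 2 rows) and 10 lower (lower 2 rows) leading genes in each eWAT library, day 2 left and day 0 right; bars are means of 3 libraries, circles and squares the high and low side of the library score. By the rule that chose them the groups do not overlap. The gap is wide for Msln, Grb14 and Sult1e1 and narrow for C6, Fndc5 and Ttc34.

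Sequence upstream of 3 leading genes is shown because they are the largest higher gene, a leading lipogenic gene and the leading lower gene with a symbol. Each is the 250 bases before the RefSeq start in GRCm38.p6, on the gene's strand, at chr9:21835260-21835509 (+) for Angptl8, chr7:97417551-97417800 (-) for Thrsp and chr2:65022767-65023016 (-) for Grb14. Capitals mark the CCAAT box (CCAAT on either strand).
Angptl8: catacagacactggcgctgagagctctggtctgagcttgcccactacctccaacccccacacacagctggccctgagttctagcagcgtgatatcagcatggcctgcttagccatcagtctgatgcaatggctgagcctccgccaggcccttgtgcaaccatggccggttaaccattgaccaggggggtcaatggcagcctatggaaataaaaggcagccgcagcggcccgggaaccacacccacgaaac
Thrsp: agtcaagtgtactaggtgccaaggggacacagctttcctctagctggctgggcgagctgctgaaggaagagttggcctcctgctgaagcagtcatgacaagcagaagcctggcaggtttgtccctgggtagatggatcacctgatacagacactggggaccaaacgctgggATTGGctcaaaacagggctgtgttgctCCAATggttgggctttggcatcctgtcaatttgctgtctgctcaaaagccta
Grb14: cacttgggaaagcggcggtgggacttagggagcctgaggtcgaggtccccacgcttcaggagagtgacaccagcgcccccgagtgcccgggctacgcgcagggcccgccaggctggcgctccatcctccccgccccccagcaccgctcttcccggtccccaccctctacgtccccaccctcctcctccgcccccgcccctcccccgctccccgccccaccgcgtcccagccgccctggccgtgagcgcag
Thrsp holds 2 matches, at -52 on its own strand and at -79 on the other, and the windows of Angptl8 and Grb14 hold none. The motif occurs in 33.8% of all 32851 windows of this length. The E-box CACGTG (6.02% of windows) and TCACNCCAC, one form of the sterol regulatory element (1.05%), were searched on both strands and matched none of the 3 windows. A match is a description of letters and not a bound site.

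Among genes of de novo lipogenesis, 14 of 16 list members were tested. Of these, 10 had positive values, 5 had all day 2 libraries above all day 0 libraries (2.35% of all genes), 0 lay below, and the median log2 change was 0.35, against 0.006 over all genes. Without eWAT539 the list median was 0.05. At an unadjusted p under 0.05 there were 4 higher (0.498% of all genes) and 0 lower. Because Scd1 and Fasn dominate it, the summed level of the list followed them, at 34700, 50200 and 39000 CPM at day 2 and 9770, 26500 and 24900 CPM at day 0.

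Fasn, the fatty acid synthase, had 4120, 7170 and 4230 CPM at day 2, against 617, 2770 and 2280 CPM at day 0. The log2 change was 1.45 (SE 0.62, unadjusted p = 0.0431 in edgeR), and eWAT516 was by far the lowest library. It ran from 1 to 1.84 when single libraries were left out, the lowest value being without eWAT516. Scd1, the stearoyl-CoA desaturase that makes oleate, had 24000, 38000 and 29100 CPM at day 2 and 4270, 17200 and 17700 CPM at day 0, a log2 change of 1.22 (SE 0.62) that was 0.77 without eWAT516. The nearest libraries of its groups were eWAT532 at 24000 CPM and eWAT518 at 17700 CPM.

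Acaca, the acetyl-CoA carboxylase that commits carbon to fatty acids, had 1710, 1890 and 1280 CPM at day 2, against 335, 1100 and 1170 CPM at day 0. Its lowest day 2 and highest day 0 libraries nearly met, and the log2 change of 0.91 (SE 0.60) was 0.49 without eWAT516. Elovl6, the elongase of long saturated fatty acids, was even at day 2, with 103, 107 and 100 CPM, against 31.1, 54.8 and 70.4 CPM at day 0. Acss2, which makes acetyl-CoA from acetate, reached 943 CPM in eWAT538 but 296 and 277 CPM in the other day 2 libraries, against 60.3, 128 and 285 CPM, so its groups overlapped.

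The rest of the list showed no common direction. Srebf1, the gene of the lipogenic transcription factor SREBP-1, had 385, 491 and 820 CPM at day 2 and 345, 565 and 332 CPM at day 0, and Mlxipl, the gene of the glucose-responsive factor ChREBP, had 108, 148 and 113 CPM against 101, 163 and 273 CPM. The desaturase genes Fads1 and Fads2 and the second stearoyl-CoA desaturase gene Scd2 were at -0.84 (SE 0.83), -0.46 (SE 1.20) and -0.15 (SE 0.85). Within sides of the score, Fasn was 1.31, Scd1 1.12, Thrsp 1.27, Elovl6 0.90 and Acaca 0.73. Summed adipocyte markers were not higher at day 2, as given above, and eWAT516, the library lowest in these lipogenic genes, was also lowest in adipocyte markers and high in epididymal ones; the part of tissue composition in these values was not tested. Without eWAT516, eWAT532 and eWAT551, Fasn was 1.14, Scd1 0.91, Thrsp 1.13, Elovl6 0.70 and Acaca 0.45.

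**Figure D3:**
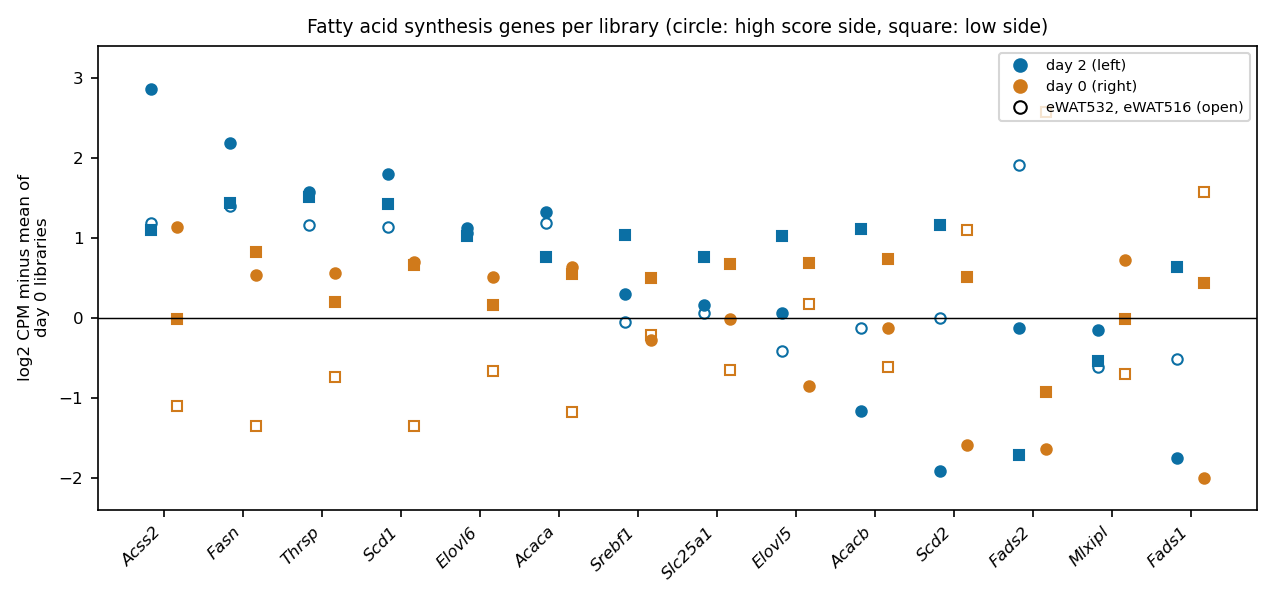
log2 CPM of the 14 tested lipogenic genes in each eWAT library, minus the mean of the day 0 libraries; day 2 in blue at left, day 0 in orange at right, open symbols eWAT532 and eWAT516. For Fasn, Thrsp, Scd1, Elovl6 and Acaca all 3 day 2 libraries lie above all 3 day 0 libraries, and eWAT516 is lowest; the other genes overlap.

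Genes that build triglyceride on the glycerol backbone were positive for 8 of 9 tested, with a median of 0.73 that was 0.34 without eWAT516. Agpat2, an acyltransferase of this pathway, had 20.1, 53.4 and 17.4 CPM at day 2, against 4.73, 17.3 and 9.4 CPM at day 0. The groups barely separated, and the log2 change of 1.53 was 0.83 without eWAT538. Gpd1, which makes glycerol 3-phosphate from a glycolytic intermediate, had 416, 549 and 461 CPM at day 2 and 121, 383 and 354 CPM at day 0, a log2 change of 0.73 (SE 0.53) that was 0.34 without eWAT516. Pck1, which supplies glycerol 3-phosphate by glyceroneogenesis, was the 1 negative member, with 1010, 1520 and 1350 CPM at day 2 and 886, 2380 and 4190 CPM at day 0 (log2 change -0.95, SE 0.61, or -0.34 without eWAT518). Its highest and lowest libraries were both at day 0.

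Lipolysis and lipid droplet genes had a median of 0.10 over 8 tested, 4 of them positive. G0s2, an inhibitor of the lipase ATGL, had 1610, 1520 and 1760 CPM at day 2, against 442, 818 and 1200 CPM at day 0, and was the 1 member whose groups did not overlap (2.35% of all genes lay above), with a log2 change of 0.99 (SE 0.60). Abhd5, the activator of the same lipase, had 205, 269 and 299 CPM at day 2 and 137, 176 and 337 CPM at day 0. The droplet coat genes Plin2 and Plin4 were at 0.85 (SE 0.64) and -0.52 (SE 0.53).

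Angptl4, an inhibitor of lipoprotein lipase that fasting and PPAR agonists induce, was lower on average at day 2, the other way from Angptl8. It had 223, 69.1 and 241 CPM at day 2, against 198, 658 and 594 CPM at day 0. The groups overlapped through eWAT516, and the log2 change was -1.44 (SE 0.60, unadjusted p = 0.0392 in edgeR), or -1.84 without eWAT516. Lpl, the lipase itself, had 6750, 14300 and 5510 CPM at day 2 and 2540, 3660 and 11100 CPM at day 0, a pattern that followed the library score. The adrenergic list (14 tested, 6 positive, median -0.06) gave no common direction. Adrb3, the beta3-adrenergic receptor of adipocytes, had 720, 330 and 588 CPM at day 2 and 430, 767 and 1560 CPM at day 0, a log2 change of -0.75 (SE 0.58) that was -0.14 without eWAT518.

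Taken singly, genes of heat production that could be tested did not separate the days. Ucp1, the uncoupling protein of brown and beige adipocytes, had 2.03, 11.7 and 1.09 CPM at day 2, against 2.93, 12.9 and 11.4 CPM at day 0. The ranges overlapped, and the log2 change of -0.88 had an SE of 1.26 and a 95% interval from -3.69 to 1.93. Of 11 thermogenic genes tested 8 were positive, with a median of 0.19 that was -0.27 without eWAT539. Separate groups were found for 0 of the 11, which is near the share over all genes (2.35% above, 2.44% below). The sum over the 17 members with a row did separate. It was 319, 511 and 337 CPM at day 2 and 257, 254 and 277 CPM at day 0 (exact permutation p = 0.1, the smallest possible). This sum includes Cox8b, whose levels followed the library score as given above. Cidea and Elovl3, both markers of brown and beige adipocytes, had at most 4 and at most 2 counts in any of the 6 libraries and were not tested.

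Dio2, the deiodinase that makes active thyroid hormone, was too low to be tested. It had 8, 37 and 14 counts at day 2, against 2, 2 and 2 counts at day 0, so every day 2 library was above every day 0 library. In a fit with no filter its log2 change was 3.51 (SE 0.92, unadjusted p = 0.00225, edgeR adjusted p = 1). At day 4 it had 8, 1 and 5 counts.

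Mitochondrial gene lists leaned to positive values without a gene passing. Fatty acid oxidation genes were positive for 16 of 19 (median 0.60), nuclear-encoded respiratory chain genes for 38 of 46 (0.40) and genes of pyruvate entry for 9 of 11 (0.51), against 50.5% of all genes. The oxidation median was 0.35 without eWAT516, and without eWAT539 those of the respiratory chain and pyruvate entry were 0.24 and 0.28. Summed respiratory chain levels overlapped, at 23500, 22900 and 34900 CPM at day 2 and 25300, 27500 and 22000 CPM at day 0 (exact permutation p = 0.8). Sums of oxidation and pyruvate entry genes were separate (exact permutation p = 0.1 for each, the smallest possible). The oxidation sums were narrowly so, with 7400 CPM in eWAT532 and 7350 CPM in eWAT518. Pyruvate entry summed to 3590, 5920 and 4540 CPM at day 2 and 1850, 2970 and 2720 CPM at day 0. A large part of it was Mpc1, which tracked the library score, as given below. All day 2 libraries lay above all day 0 libraries (2.35% of all genes) for the oxidation genes Acsl1 and Hadha, the respiratory chain genes Ndufs4, Ndufa9 and Uqcrb, and the pyruvate entry genes Dlat and Pdk1. Cpt1a alone lay below (2.44% of all genes).

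Acsl1, the main acyl-CoA synthetase of adipocytes, had 2380, 3480 and 2230 CPM at day 2, against 1440, 1910 and 1600 CPM at day 0 (log2 change 0.71, SE 0.49). Uqcrb, a subunit of complex III, had 167, 331 and 179 CPM at day 2 and 88, 100 and 129 CPM at day 0 (1.09, SE 0.49, or 0.70 without eWAT538). Cpt1a, the liver-type carnitine palmitoyltransferase that admits fatty acids to mitochondria, went the other way, with 140, 75.6 and 73 CPM against 199, 181 and 220 CPM (-1.06, SE 0.50). In pyruvate entry, Dlat, the E2 subunit of pyruvate dehydrogenase, had 98.2, 130 and 87.1 CPM at day 2 and 36.7, 62.1 and 76.9 CPM at day 0. Pdk1, a kinase that inhibits pyruvate dehydrogenase, had 76.2, 74.6 and 95.2 CPM at day 2 and 52.9, 57.9 and 63.5 CPM at day 0 (0.50, SE 0.32). Mpc1, a subunit of the mitochondrial pyruvate carrier, had the largest value in that list (1.70, SE 0.85) but tracked the score, with 1130, 2460 and 265 CPM against 165, 209 and 813 CPM.

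Sterol synthesis genes were positive for 12 of 17, with a median of 0.58, and 3 had day 2 libraries all above day 0 (Sc5d, Nsdhl and Idi1), against 2.35% of all genes. The median was 0.29 without eWAT538. Idi1, the isopentenyl diphosphate isomerase, had 91.3, 67.1 and 54.5 CPM at day 2 and 33.3, 21.1 and 50.1 CPM at day 0. Srebf2, the gene of a transcription factor that drives the pathway, had a log2 change of -0.59 (SE 0.75). Tkt, the transketolase of the pentose phosphate pathway, had 3830, 1710 and 1830 CPM at day 2, against 593, 762 and 1380 CPM at day 0, a log2 change of 1.43 (SE 0.64) that was 0.70 without eWAT516, eWAT532 and eWAT551.

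**Figure D4:**
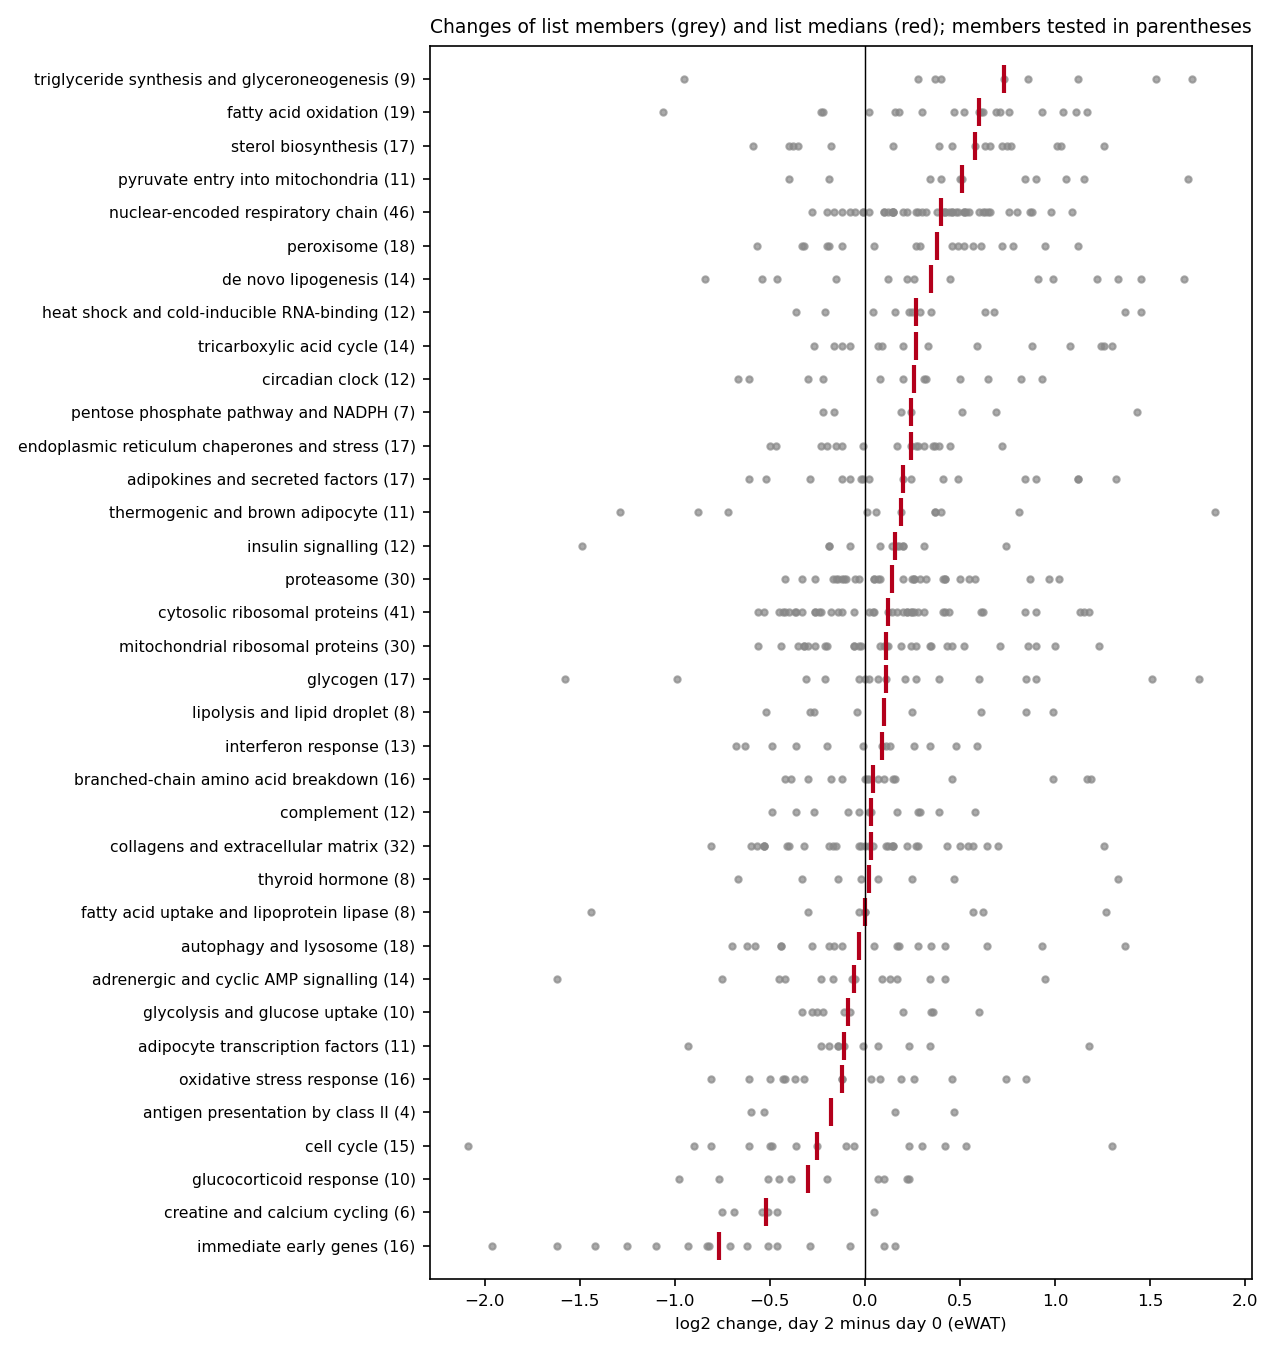
log2 change (day 2 minus day 0) in eWAT of each tested member (grey) of 36 gene lists, with the list median in red; the number tested is in parentheses. Medians run from -0.77 for immediate early genes to 0.73 for triglyceride synthesis, and every list spreads over values on both sides of 0.

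Immediate early genes, rapidly induced by cell stimulation and by handling of tissue, had the lowest median of the 36 lists plotted, at -0.77, with 2 of 16 positive, and -0.46 without eWAT518. Among cell type lists, skeletal muscle (-1.40) and smooth muscle and pericyte (-0.83) markers had lower medians, which were 0.17 and 1.35 without eWAT516. Egr1 had 58.7, 14 and 86 CPM at day 2, against 182, 347 and 86.9 CPM at day 0. Day 2 eWAT539 and day 0 eWAT518 were nearly equal, and the log2 change of -1.96 (SE 0.81) was -1.44 within sides. Nr4a1 had 1.74, 2.28 and 2.17 CPM at day 2 and 4.73, 9.14 and 5.41 CPM at day 0. Only these 2 had all day 2 libraries below (2.44% of all genes), Fos had 15.7, 17.9 and 18.7 CPM against 12.4, 28.1 and 52.4 CPM, and the part of dissection and freezing in these values was not tested.

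Adipokines did not separate the days. Lep, the gene of the satiety hormone leptin, had 212, 88.3 and 265 CPM at day 2 and 76.5, 231 and 171 CPM at day 0, and Adipoq, the gene of adiponectin, had 2640, 997 and 9040 CPM against 2990, 7270 and 5260 CPM. Both ranges overlapped widely. Of 17 such genes tested 10 were positive and 0 had separate groups, near the share over all genes (2.35% above, 2.44% below).

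Inflammatory and stromal genes also gave no common direction. Macrophage markers were positive for 6 of 12, collagens and matrix genes for 17 of 32 and complement genes for 7 of 12, with medians of -0.10, 0.03 and 0.03. The matrix protease Mmp2 had 93.6, 50.5 and 101 CPM at day 2, against 168, 109 and 154 CPM at day 0, and the phagocyte receptor gene Mertk had 4.07, 2.61 and 5.43 CPM against 6.53, 12.2 and 8.26 CPM. The neutrophil gene S100a8 reached 69.4 CPM in eWAT538 alone, and its log2 change of 1.42 was 0 without that library.

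Other lists also held members with separate groups, beside 2.35% of all genes above and 2.44% below. These were Mrpl15, Mrpl3, Mrps14, Mrps18a and Mrps22 above, of 30 mitochondrial ribosomal protein genes (median 0.11), and Rps3 and Rpl8 above, of 41 cytosolic ones (0.12), where processed copies make counts uncertain. Psmd1 and Psmd11 of 30 proteasome genes, Hsp90aa1 and Dnajb1 of 12 heat shock and cold-inducible genes, Sod2, Hsd17b4, Ifi35 and Bhlhe40 lay above. The clock gene Nr1d2, the metallothionein gene Mt2, the corepressor gene Tbl1xr1 and the mitotic genes Top2a and Bub1b lay below. Cirbp, a cold-inducible RNA-binding protein gene in cultured cells, had 128, 133 and 176 CPM at day 2, against 242, 166 and 97.7 CPM at day 0. Its relative Rbm3 had at most 6 counts in any of the 6 libraries.

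The same contrast was then set beside the other depots, inguinal white fat (iWAT) and interscapular brown fat (iBAT). Sides of the library score were unequally filled there too. Every iWAT day 2 library was low (-51.7, -7.4 and -41), while iWAT516, iWAT517 and iWAT518 at day 0 were high (27.1, 34 and 45.9). Every iBAT day 0 library was low, while iBAT535 and iBAT539 at day 2 were high (56.2 and 52.3). Values within sides are not given for these depots. The part of the score in their changes and in differences from eWAT was not tested gene by gene. The test of the difference in day 2 change passed for no gene between eWAT and iWAT (0 of 11041 genes, smallest adjusted p 0.777, 412 higher and 177 lower at an unadjusted p under 0.05) or between eWAT and iBAT (0 of 11041, smallest adjusted p 0.109, 298 higher and 176 lower) in edgeR. DESeq2 called 23 and 39 genes in these tests, among them genes best known from testis and sperm, such as Odf1, Prm1, Prm2 and Tnp1, whose markers varied between the libraries as given above; their part was not tested. In its own fit iBAT had 13 of 8270 genes past the threshold at day 2 (0.157%), 11 higher and 2 lower, and iWAT had 0 of 9574.

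Of the 13 brown fat genes, 10 were tested in eWAT and none passed there. Ckb, the brain-type creatine kinase, had a log2 change of -0.69 (SE 0.73) in eWAT and 4.33 (SE 0.56) in iBAT, a difference of -4.97 (SE 1.01, edgeR adjusted p = 0.197). Its eWAT levels were 378, 96.5 and 183 CPM at day 2, against 736, 227 and 97.1 CPM at day 0, and its eWAT change was 0.40 without eWAT516 and -0.06 within sides. Cars2, the mitochondrial cysteinyl-tRNA synthetase, was at -0.47 (SE 0.40) in eWAT and 2.33 (SE 0.38) in iBAT (difference -2.74, SE 0.51, adjusted p = 0.109). Svep1, a large extracellular matrix protein gene, was at 0.50 (SE 0.57) in eWAT, or 0.15 without eWAT516, and -2.97 (SE 0.39) in iBAT. The eWAT change of Cars2 was -0.19 without eWAT538. The other 7 were Acot11, Ankrd9, Ctsz, Hcn2, Impdh1, Rom1 and Tesc. DESeq2 called the difference for Ckb, Cars2, Svep1, Ctsz and Tesc. For Ckb and Cars2 the difference passed without eWAT518 (smallest adjusted p 0.0436). Missing values in 1 of the 4 iBAT day 2 libraries are not shown to be counts of 0, which touches these differences.

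Ucp1 had a log2 change of 4.82 (SE 0.94) in iWAT. The eWAT change minus the iWAT change was -5.71 (SE 1.48), which did not pass in edgeR (adjusted p = 0.777) and was among those DESeq2 called. Angptl8 had positive values in every depot, with 2.61 (SE 0.58) in iWAT and 1.99 (SE 0.43) in iBAT, and its difference in eWAT from these was -0.47 (SE 0.79) and 0.29 (SE 0.78). Grb14 was at -1.12 (SE 0.44) in iWAT and -0.36 (SE 0.43) in iBAT. Fasn was at 0.22 (SE 0.59) in iWAT and 0.94 (SE 0.41) in iBAT, and Thrsp at 0.93 (SE 0.46) and 1.19 (SE 0.52).

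**Figure D5:**
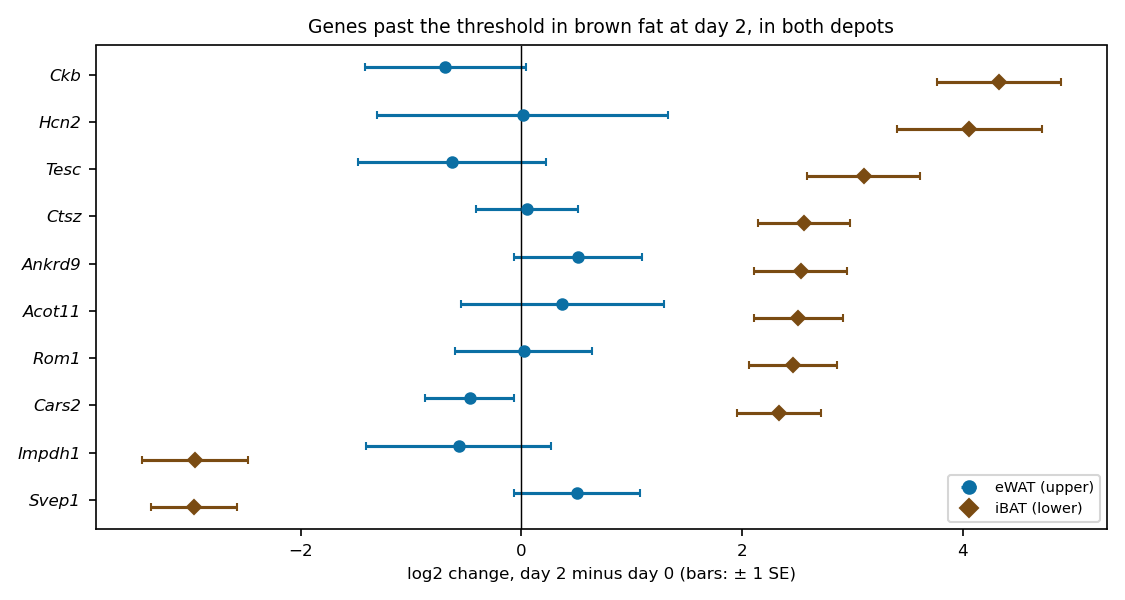
log2 change at day 2 (± 1 SE) in eWAT (circles, upper) and iBAT (diamonds, lower) of the 10 genes past the threshold in iBAT that were tested in eWAT. The eWAT values lie between -0.69 and 0.51, and the iBAT values between -2.97 and 4.33.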

How the data were processed

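The authors deposited 1 table of raw counts per RefSeq transcript accession for each depot. Reads were trimmed with cutadapt and aligned with BWA to mm10, per the submitters' processing notes, which give no versions; the counting step, annotation, strand use and duplicate removal are not given in the sources used here. No cell of the tables holds a 0, and empty cells were taken as 0 counts. Me1, Akt1, Gnas and Dcn had at most 1 count in any eWAT library. A low count is therefore not shown to mean low expression. Of 16132 eWAT accessions, 15859 took a RefSeq symbol and 97 a GENCODE symbol, 176 had none and 773 shared one; lists and names used the accession with the highest mean per symbol.

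Counts of all 9 eWAT libraries, day 4 included to estimate the spread, were fitted in edgeR 4.0.16 (R 4.3.3) using TMM factors, the filterByExpr filter set to a minimum count of 10 and a minimum total of 15, a mean for each time point, and robust quasi-likelihood F-tests, two-sided, with Benjamini-Hochberg adjustment over all genes and a threshold of 0.05. Changes between depots were tested in 1 fit of all 31 libraries. Alternatives used DESeq2 1.42.0 and limma 3.58.1, among others given at the end. Summed markers are CPM of the plain total count, compared by exact two-sided permutation tests. Counts carry no molecular identifiers, and chi-square per degree of freedom between replicates ran from 71.8 to 129.8, so counting error understates the spread and no library pair was a duplicate. The library score projects a library's deviations on the within-group axis of the other depots.

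Named genes were (a) 19 fixed genes (16 with a row, 11 tested), (b) the 10 genes of smallest p in each direction whose libraries do not overlap and whose mean reaches 5 CPM at either day, filled in because none passed, and (c) from each of 50 lists the member of smallest p; list members without overlap and brown fat genes were also taken, and not each gene so chosen is described. Any further gene was picked with its values already in view. The genes and lists were chosen with earlier results of these data known. Figures and medians cover tested members only.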

Additional observations from a re-analysis of the deposited data

How the results depend on the processing

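The count of genes past the threshold was 0 in each direction under all 16 alternatives: RLE factors, library size alone, no filter, DESeq2, voom, only the 6 libraries compared, the library score as covariate, its sides as a factor, accessions summed per symbol, each library left out, and, chosen after seeing the data, without eWAT516, eWAT532 and eWAT551. Counts at an unadjusted p under 0.05 depended on single libraries. Without eWAT518 they were 588 higher and 101 lower (smallest adjusted p 0.745), without eWAT539 129 and 541 (0.756) and without eWAT532 127 and 179; with the score they were 107 and 157, without the 3 libraries 22 and 103. Without eWAT518 some values with wide spread moved, Prm2 to 3.22, Klf15 to 2.94 and Orm1 to 2.96. Adipoq was -1.52 without eWAT539 and Ucp1 -2.52 without eWAT538. The lipogenic median ranged from 0.05 (without eWAT539) to 0.70 (without eWAT517). With 1 library left out, some medians near 0 took both signs, such as lipolysis (-0.22 to 0.59) and adrenergic signalling (-0.37 to 0.29). For the difference between eWAT and iWAT, DESeq2 gave 23 genes (19 higher, 4 lower in eWAT), and every other setting gave 0. For eWAT and iBAT, DESeq2 gave 39 (6 higher, 33 lower), leaving out 1 library gave 0 to 2, the 2 being Ckb and Cars2 without eWAT518, and the rest gave 0; the cause was not tested.

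Within eWAT no paired analysis was possible because no label number occurs at both days. A replicate block on the numbers that recur across depots left 0 genes in both depot comparisons. Deviations of same-numbered libraries correlated from -0.31 to 0.36. These deviations also carry the library score and transcripts of neighbouring tissue, so they cannot decide whether the numbers pair libraries. Whether a number is 1 animal is not known.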

Other observations

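At day 4 in the cold, with day 0 libraries shared with the comparison above, Angptl8 had 22.4, 5.37 and 27.4 CPM in eWAT548, eWAT551 and eWAT553, and Fasn had 3560, 1890 and 5180 CPM. Grb14 had 33.4, 19.1 and 25.8 CPM. For these 3 genes the library with most epididymal transcripts at day 4, eWAT551 (30100 CPM summed), had the lowest level. Fbn1 and Mfap5 were picked with their values in view. The matrix gene Fbn1 had 53.5, 340 and 174 CPM at day 2 in eWAT532, eWAT538 and eWAT539, against 37.4, 84.3 and 115 CPM at day 0, and 460, 483 and 337 CPM at day 4. The elastic fibre gene Mfap5 had 79.9, 238 and 156 CPM at day 2, against 35.1, 84.6 and 96.6 CPM at day 0, and 275, 240 and 430 CPM at day 4.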
